A study of Mus musculus with 6 samples.

Results

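Amino acid breakdown was followed across 47 enzyme genes in the kidneys of P15 (postnatal day 15) mice whose dams ate an iron-deficient diet (FeD) or an iron-sufficient diet (control). The genes were chosen by symbol from the 24422 genes of the count tables, and they serve the breakdown of tyrosine, branched-chain amino acids, lysine, proline, histidine, D-amino acids, acylated amino acids, glycine and betaine. RNA-seq was available for 3 kidneys per group, and each kidney was its own library. All 6 mice were wild type C57BL/6. Dams, 8 weeks old when the diets began, received food with about 2 to 6 ppm iron in the FeD group and 220 ppm iron in the control group, from before mating until the pups reached P15. The labels put the start of the diets a month before mating, and the methods of the study give a shorter time. The pups were therefore exposed through the dam, before and after birth. The labels do not give litters, so that diet and litter cannot be told apart, and p-values measure the spread between these kidneys only.

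The kidney takes up filtered amino acids in the proximal tubule, and the same cells hold many of the enzymes that break them down. Most of these pathways end inside mitochondria, where carbon skeletons are oxidized, while peroxisomes hold oxidases for D-amino acids and related acids. HPD and HGD of tyrosine breakdown are dioxygenases with a ferrous iron at the active site. The glycine cleavage system and the demethylation of choline products feed carbon units to folate.

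The libraries held 13732173 to 20853293 counts each. FeD kidney 2 stood apart by transcripts of the adrenal gland. The steroid hydroxylase Cyp21a1 had 2652 counts there and 5 to 17 counts in the other kidneys, Cyp11b1 had 1828 counts against 0 to 6, and Th, tyrosine hydroxylase, had 1102 counts against 1 to 4. Star, a carrier of cholesterol into mitochondria, had 3659 normalized counts there and 125 to 189 in the others. The summed level of 8 adrenal genes was 855 CPM (counts scaled to a common library total) in that kidney, and 18.9 to 49.7 CPM in the others. The kidneys also differed in sex-linked transcripts, which the labels do not explain. Xist, the transcript of the inactive X chromosome, had 12870 to 18627 counts in control 1, control 2 and FeD 3, and 28 to 47 counts in control 3, FeD 1 and FeD 2, and Y-linked Ddx3y had the reverse pattern. Markers shared by all segments of the proximal tubule were well detected in every kidney, at 10200 to 10760 CPM in control and 6797 to 6972 CPM in FeD kidneys. Globally, the median log2 fold change of the 15145 genes with enough counts to test was -0.0018.

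Enzymes of amino acid breakdown were mostly lower in FeD kidneys, with at least 1 lower enzyme in each of the 8 pathway groups. Together they made up 0.756% to 0.778% of all counts in control kidneys and 0.496% to 0.509% in FeD kidneys. Of the 47 genes, 46 passed the filter on low counts. Hal, histidine ammonia-lyase, did not pass, with 3, 6 and 11 raw counts in control and 2, 3 and 2 in FeD kidneys. With edgeR (quasi-likelihood test, P adjusted by Benjamini-Hochberg over every tested gene and written Padj), 15 of the 46 were at least 2-fold lower at Padj under 0.05, against 5.69% of all tested genes, and 2 were at least 2-fold higher, against 4.34% of all tested genes. Without a fold threshold, 37 were lower, against 23.3% of all tested genes, and 2 were higher, against 22.4% of all tested genes. The median log2 fold change of the 46 was -0.76. Every FeD kidney lay below every control kidney for 40 of them, against 29.7% of all tested genes, and above for 2, against 28.4%. Without FeD kidney 2, 16 were at least 2-fold lower and 2 higher, and with the Xist pattern as a term in the model the counts were 15 and 2. The strand setting of the counting is not stated, and 14 of the 47 genes share exon bases with a gene on the other strand, at most 16.0% (Bcat2). In bulk tissue, fewer cells of a type and less RNA per cell cannot be told apart.

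**Figure D1:**
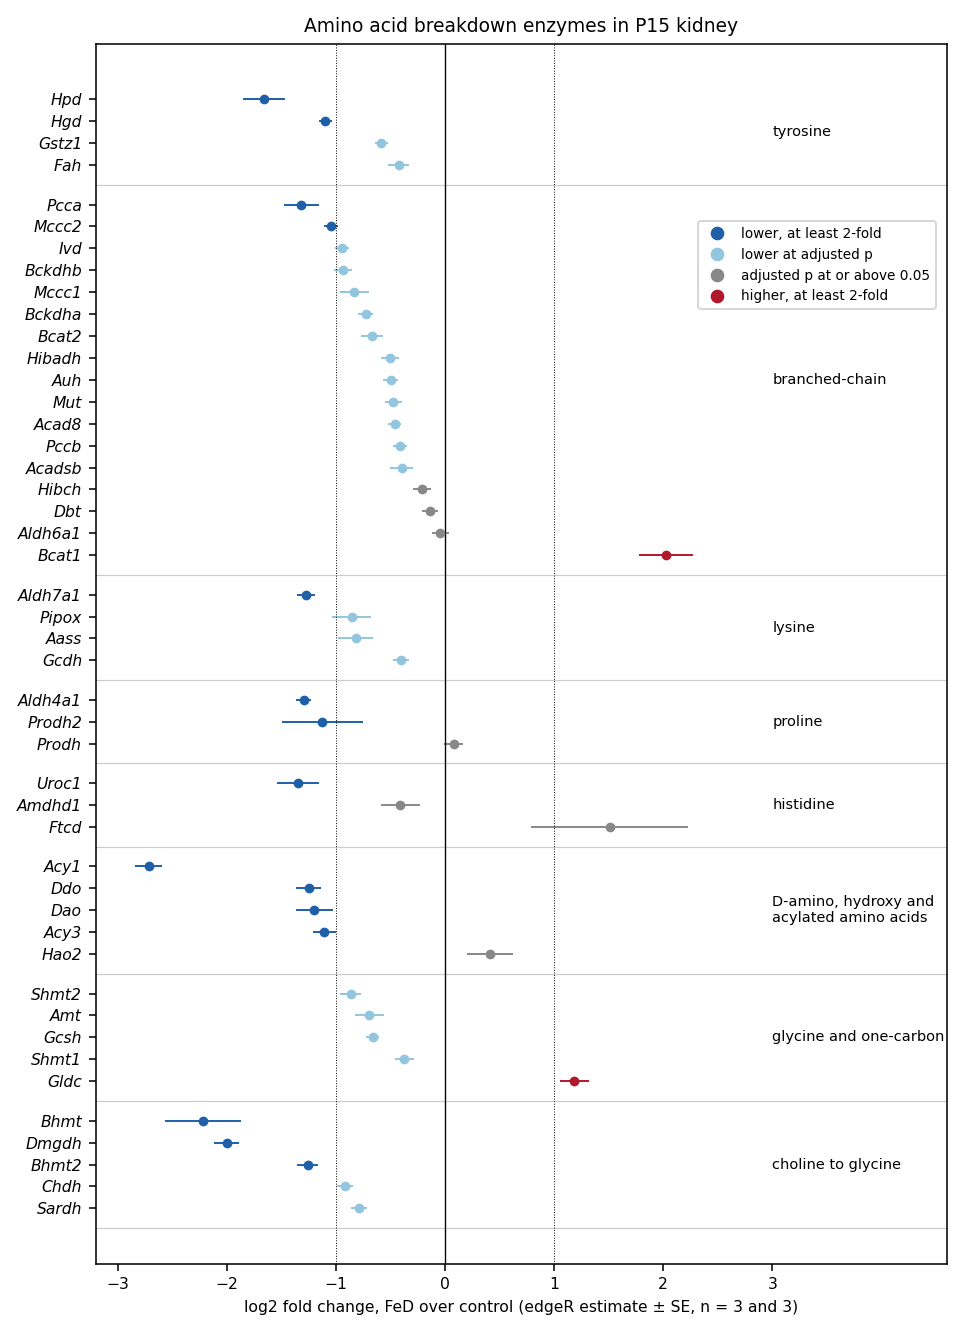
The log2 fold change of FeD over control kidneys is plotted for the 46 tested enzymes, grouped by pathway, with bars for the standard error (n = 3 and 3) and dotted lines at a 2-fold change. Acy1 lies farthest to the left at -2.72, and Bcat1 and Gldc are the only 2 that passed the test to the right of the zero line.

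The tyrosine pathway was lower at all 4 steps measured, against 37 of all 46 enzymes and 23.3% of all tested genes at Padj under 0.05. Hpd, 4-hydroxyphenylpyruvate dioxygenase, forms homogentisate with the help of ferrous iron. Its normalized counts (counts scaled by TMM factors to the mean library size) were 720, 807 and 564 in control kidneys and 283, 205 and 175 in FeD kidneys. The groups did not overlap, and the log2 fold change was -1.65 ± 0.19 (SE, Padj = 0.00038). Hgd, homogentisate dioxygenase, is the iron enzyme of the next step. Its counts were 4889, 5100 and 5110 in control and 2323, 2333 and 2414 in FeD kidneys. The kidneys of each group lay close together, within 1.05-fold in control and 1.04-fold in FeD, and the log2 fold change was -1.10 ± 0.06 (Padj = 1.6e-05). The enzymes that follow had smaller changes, with -0.58 for Gstz1, maleylacetoacetate isomerase (Padj = 0.00024), and -0.43 for Fah, which releases fumarate and acetoacetate (Padj = 0.0078). Read from the first to the last enzyme, the 4 estimates thus became smaller, although the differences between steps were not tested.

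Branched-chain amino acids (leucine, isoleucine and valine) had the most genes, and 13 of the 17 were lower at Padj under 0.05. The share was 37 of all 46 enzymes and 23.3% of all tested genes. Bcat1 and Bcat2 encode the cytosolic and mitochondrial transaminases that begin the pathway, and they moved in opposite directions. Bcat1 had 304, 195 and 300.0 normalized counts in control and 959, 826 and 1472 in FeD kidneys. All FeD kidneys lay above all control kidneys, with a log2 fold change of 2.03 ± 0.25 (Padj = 0.00044). Bcat2 had 2661, 2692 and 2846 in control and 1956, 1762 and 1460 in FeD kidneys, a log2 fold change of -0.66 ± 0.10 (Padj = 0.0013). Hence the ratio of Bcat1 to Bcat2 reads went from 0.0724 to 0.114 in control kidneys up to 0.469 to 1.01 in FeD kidneys.

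The second step is carried out by the branched-chain ketoacid dehydrogenase complex, and its subunits did not move alike. Bckdha (-0.73) and Bckdhb (-0.93), the E1 subunits, were lower, with Padj of 0.00013 and 0.0001. Dbt, the E2 core, had 1820, 1786 and 1757 counts in control and 1476, 1707 and 1694 in FeD kidneys. Its groups did not overlap, yet its log2 fold change of -0.14 ± 0.07 did not pass (Padj = 0.14).

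In the leucine branch, Ivd (-0.94), isovaleryl-CoA dehydrogenase, both carboxylase subunits, Mccc1 (-0.83) and Mccc2 (-1.05), and Auh (-0.50), the hydratase, were lower. In the valine branch, Acad8 (-0.46) and Hibadh (-0.50), of which 19.5% of transcript windows had a near-identical copy elsewhere in the genome, were lower, while Hibch, the hydrolase between them, was at -0.21 (Padj = 0.062). Aldh6a1, methylmalonate semialdehyde dehydrogenase, had 11600, 12920 and 11410 counts in control and 11140, 12020 and 11710 in FeD kidneys. These groups overlapped, and the log2 fold change was -0.04 ± 0.08 (Padj = 0.68). Acadsb of the isoleucine branch was at -0.40 (Padj = 0.017), a call that was lost without control kidney 1 (Padj = 0.051), control kidney 2 (0.062), FeD kidney 1 (0.07) or FeD kidney 2 (0.062).

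Propionyl-CoA, the shared product of valine and isoleucine, is carboxylated by an enzyme of alpha subunits (Pcca) and beta subunits (Pccb). Pcca had 2797, 2860 and 2955 counts in control and 1039, 913 and 1496 in FeD kidneys, the largest decrease among the branched-chain genes. The log2 fold change was -1.32 ± 0.16 (Padj = 0.00045), and FeD kidney 3 was the highest of its group. Pccb changed by -0.41 ± 0.06 (Padj = 0.0013), and Mut, methylmalonyl-CoA mutase, which uses cobalamin, by -0.47 (Padj = 0.0017).

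The lysine enzymes were lower at all 4 genes, against 37 of all 46 enzymes and 23.3% of all tested genes at Padj under 0.05. Aldh7a1, alpha-aminoadipic semialdehyde dehydrogenase, had 4647, 4857 and 4808 counts in control and 2159, 1988 and 1775 in FeD kidneys. The groups lay far apart, with a log2 fold change of -1.27 ± 0.08 (Padj = 3.2e-05). Aass, which begins the pathway, was at -0.82 (Padj = 0.0043), Pipox, the peroxisomal oxidase of pipecolate and sarcosine, at -0.86 (Padj = 0.0054), and Gcdh, glutaryl-CoA dehydrogenase, at -0.40 (Padj = 0.0029).

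Proline and hydroxyproline have separate first enzymes and then share Aldh4a1, pyrroline-5-carboxylate dehydrogenase. Prodh, for proline, had 2804, 2847 and 3085 counts in control and 3396, 3101 and 2741 in FeD kidneys. The groups overlapped (log2 fold change 0.08 ± 0.09, Padj = 0.48). Prodh2, for hydroxyproline, had 2707, 3095 and 2984 counts in control and 1306, 2166 and 592 in FeD kidneys. All FeD kidneys were below the controls but spread over 3.66-fold, and the log2 fold change of -1.12 ± 0.37 had a Padj of 0.036. This call was lost with DESeq2 (Padj = 0.051), without any single control kidney (Padj = 0.071 to 0.096) and without FeD kidney 1 (Padj = 0.10). Without FeD kidney 3 its log2 fold change was -0.75 (Padj = 0.0092), below the 2-fold threshold, and without FeD kidney 2 it was -1.61. The shared enzyme Aldh4a1 was lower in every FeD kidney, with 8885, 9193 and 9386 counts in control and 3675, 3963 and 3559 in FeD kidneys (log2 fold change -1.29 ± 0.07, Padj = 1.8e-05).

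Histidine breakdown was weakly expressed. Uroc1, urocanate hydratase, had 177, 206 and 228 counts in control and 98.0, 81.8 and 61.3 in FeD kidneys, a log2 fold change of -1.35 ± 0.19 (Padj = 0.00099). Amdhd1, imidazolonepropionase, had Padj = 0.096 with a log2 fold change of -0.41. Ftcd, the last enzyme, had only 4 to 12 raw counts in control kidneys and 7 to 32 in FeD kidneys. The groups overlapped, and the log2 fold change of 1.51 ± 0.72 did not pass (Padj = 0.12).

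Acylated amino acids, D-amino acids and hydroxy acids form a group handled by aminoacylases and peroxisomal oxidases. Of the 5 genes of this group, 4 were at least 2-fold lower, against 15 of all 46 enzymes and 5.69% of all tested genes. Acy1, aminoacylase 1, a zinc enzyme that frees amino acids from their N-acetyl forms, had the largest decrease of all 46 genes. It had 3774, 3968 and 4545 counts in control and 619, 525 and 719 in FeD kidneys. FeD kidneys thus held 15.2% of the control mean, with a log2 fold change of -2.72 ± 0.12 (Padj = 8.9e-06). Acy3, the related aminoacylase of aromatic acetylated amino acids, had 3023, 3228 and 3615 counts in control and 1442, 1376 and 1757 in FeD kidneys (log2 fold change -1.11 ± 0.11, Padj = 0.00016). Among windows of 100 bases along the Acy3 transcript, 9.86% had a near-identical copy elsewhere in mm9.

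Dao, D-amino acid oxidase, acts on neutral D-amino acids and Ddo, D-aspartate oxidase, on acidic ones. Dao had 4128, 4463 and 4541 counts in control and 1921, 2412 and 1408 in FeD kidneys (log2 fold change -1.20 ± 0.17, Padj = 0.00086). Ddo had 784, 770 and 692 counts in control and 353, 329 and 264 in FeD kidneys (log2 fold change -1.25 ± 0.12, Padj = 0.00015). For both genes the groups were separate, and FeD kidney 3 was the lowest of all. Hao2, the 2-hydroxyacid oxidase of the same organelle, had 4858, 5147 and 4499 counts in control and 5364, 4905 and 9021 in FeD kidneys. Only FeD kidney 3 stood well above the controls, and the log2 fold change was 0.41 ± 0.21 (Padj = 0.14). It passed without FeD kidney 2 (0.60, Padj = 0.04) and with the Xist pattern as a term (0.52, Padj = 0.017).

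**Figure D2:**
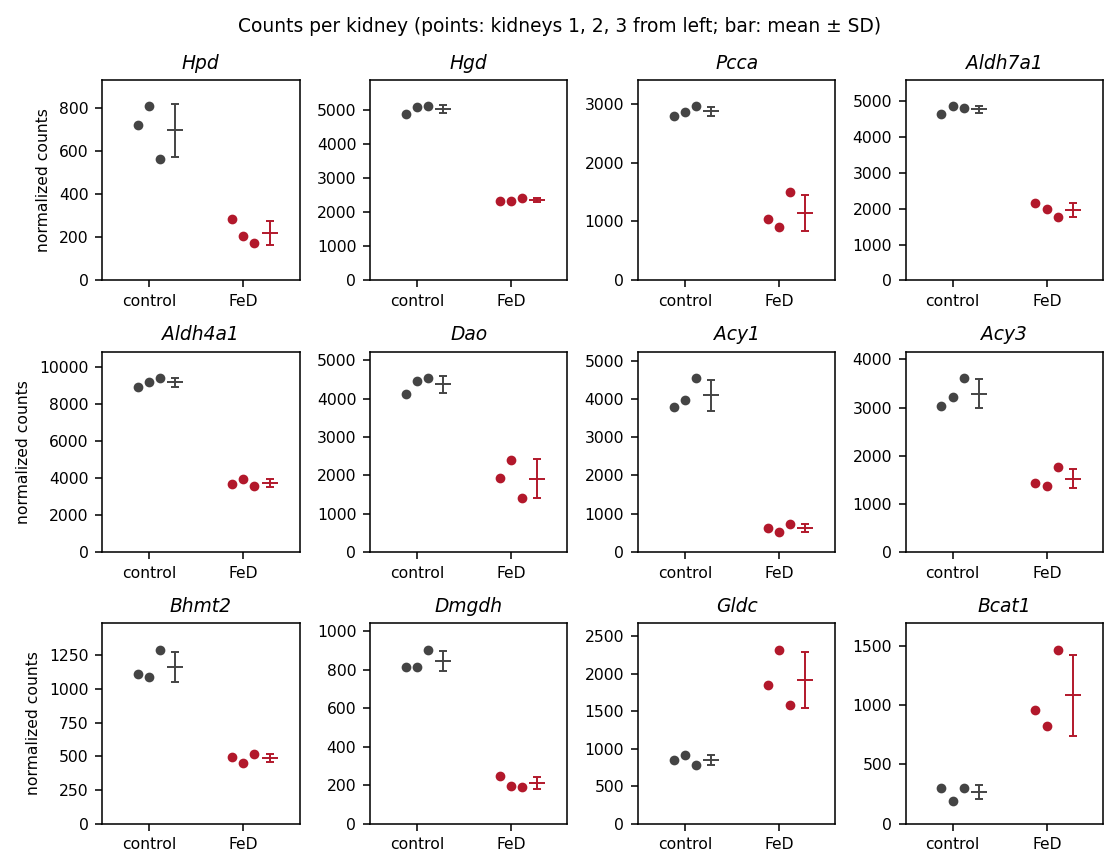
Normalized counts of 12 enzymes are plotted for each kidney, with the mean and SD (n = 3) beside the points and axes that start at 0. All 12 are among the enzymes called at least 2-fold, whose groups were all separate, so the lack of overlap follows from the choice. Gldc and Bcat1 are the 2 panels in which the FeD kidneys are the higher ones. Over the 46 enzymes, every FeD kidney lay below every control kidney for 40, against 29.7% of all tested genes. Every FeD kidney lay above for 2, against 28.4%.

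Of the glycine cleavage system, the 47 genes include the P protein (Gldc), the T protein (Amt) and the H protein (Gcsh). The P protein performs the decarboxylation. Gldc had 848, 911 and 776 counts in control and 1856, 2325 and 1588 in FeD kidneys. Each FeD kidney was above all controls (log2 fold change 1.18 ± 0.13, Padj = 0.00033). Its partners were lower, Amt by -0.69 ± 0.14 (Padj = 0.0043) and Gcsh by -0.66 ± 0.06 (Padj = 0.00016). Gcsh is less certain than the others because 64.7% of its transcript windows had a near-identical copy elsewhere in the genome, and the authors counted uniquely mapped reads only. The serine hydroxymethyltransferases that interconvert serine and glycine were both lower, at -0.86 for mitochondrial Shmt2 (Padj = 0.00028, with copies of 10.9% of its windows) and -0.37 for cytosolic Shmt1 (Padj = 0.0089).

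Choline is oxidized to betaine, and the methyl groups of betaine are then removed one after another to leave glycine. The 4 genes of this route and Bhmt2, a relative of Bhmt, were all lower. At Padj under 0.05 the share was 37 of all 46 enzymes and 23.3% of all tested genes. Chdh, choline dehydrogenase, was at -0.92 (Padj = 6e-05). Bhmt2, which methylates homocysteine from S-methylmethionine, had 1111, 1087 and 1292 counts in control and 493, 453 and 513 in FeD kidneys (log2 fold change -1.26 ± 0.09, Padj = 5.9e-05). Dmgdh, dimethylglycine dehydrogenase, had 816, 812 and 905 counts in control and 245, 198 and 191 in FeD kidneys. FeD kidneys held 25.0% of its control mean (log2 fold change -2.0 ± 0.11, Padj = 2e-05), whereas Sardh, the sarcosine dehydrogenase of the next step, kept 58.1% (log2 fold change -0.79, Padj = 0.00016). Bhmt, the methyltransferase that uses betaine itself, had 60.4, 71.9 and 65.0 counts in control and 17.0, 19.5 and 6.91 in FeD kidneys (log2 fold change -2.22 ± 0.35, Padj = 0.0015). Near-identical copies elsewhere covered 81.7% of the Bhmt transcript windows and 15.1% of those of Bhmt2. Reads that map equally well to such a copy were not counted, so the level of Bhmt may rest on part of its sequence. The loss of reads was not measured.

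Bhmt, Bhmt2 and Dmgdh are neighbours on chromosome 13 (mm9, GENCODE). Bhmt (94386846 to 94407916) and Bhmt2 (94425675 to 94444257) are read from the minus strand and lie 17.8 kb apart. Dmgdh (94444388 to 94522786) is read from the plus strand, head to head with Bhmt2. The 130 bases between the annotated starts of Bhmt2 and Dmgdh, at chr13:94444258-94444387, are shown because both genes on either side were lower in FeD kidneys. They are written on the plus strand, so that Dmgdh follows on the right and Bhmt2 on the left, and capitals mark the only match to a GC box (GGGCGG on either strand).
Bhmt2-Dmgdh: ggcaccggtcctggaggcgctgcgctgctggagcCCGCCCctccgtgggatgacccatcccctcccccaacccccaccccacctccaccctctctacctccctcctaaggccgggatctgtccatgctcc
This interval had a GC content of 70.8% and 6 CpG dinucleotides. It held no match to CCAAT, to the hypoxia response core ACGTG or to the HNF4 core CAAAGT.

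Promoter windows from 250 bases before to 50 bases after the start (RefSeq, GRCm38.p6) were matched for 44 of the 47 enzymes. Dbt, Mut and Aldh7a1 had no entry. Searched on both strands, CCAAT was present in 25 of the 44 (56.8%) and in 41.1% of 27025 genes with an entry. The GC box GGGCGG was present in 24 (54.5%, against 38.2%), CAAAGT in 10 (22.7%, against 16.1%) and ACGTG in 7 (15.9%, against 21.8%). These matches describe letters and not binding. The 27025 genes were not limited to the 15145 tested in these kidneys, so an excess over them may not be particular to these enzymes.

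Partner genes were next compared by their ratio within each kidney, which does not depend on how libraries are scaled. Ratios were computed for 6 pairs within a complex and 7 pairs of related or alternative enzymes. With 3 kidneys against 3, the exact permutation test (two-sided) cannot fall below p = 0.10, so no pair could pass, and the smallest value adjusted over the 13 pairs was 0.13. The ratio of Gldc to Amt was 0.848 to 1.06 in control and 2.38 to 4.92 in FeD kidneys, and that of Gcsh to Amt overlapped (2.22 to 2.31 and 1.77 to 2.74). The ratio of Pcca to Pccb was 0.432 to 0.459 in control and 0.185 to 0.317 in FeD kidneys. Dbt to Bckdha went from between 0.371 and 0.400 to between 0.492 and 0.638, while Mccc1 to Mccc2 overlapped.

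Among related enzymes, Acy1 to Acy3 had the tightest ratios, at 1.23 to 1.26 in control and 0.382 to 0.429 in FeD kidneys. Dmgdh to Sardh was 0.254 to 0.282 in control and 0.10 to 0.13 in FeD kidneys. Shmt1 to Shmt2 was higher in every FeD kidney (0.978 to 1.11) than in every control (0.664 to 0.783). Prodh to Prodh2 was 0.920 to 1.04 in control and spread from 1.43 to 4.63 in FeD kidneys. The ratios of Dao to Ddo overlapped, at 5.26 to 6.57 in control and 5.33 to 7.34 in FeD kidneys.

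**Figure D3:**
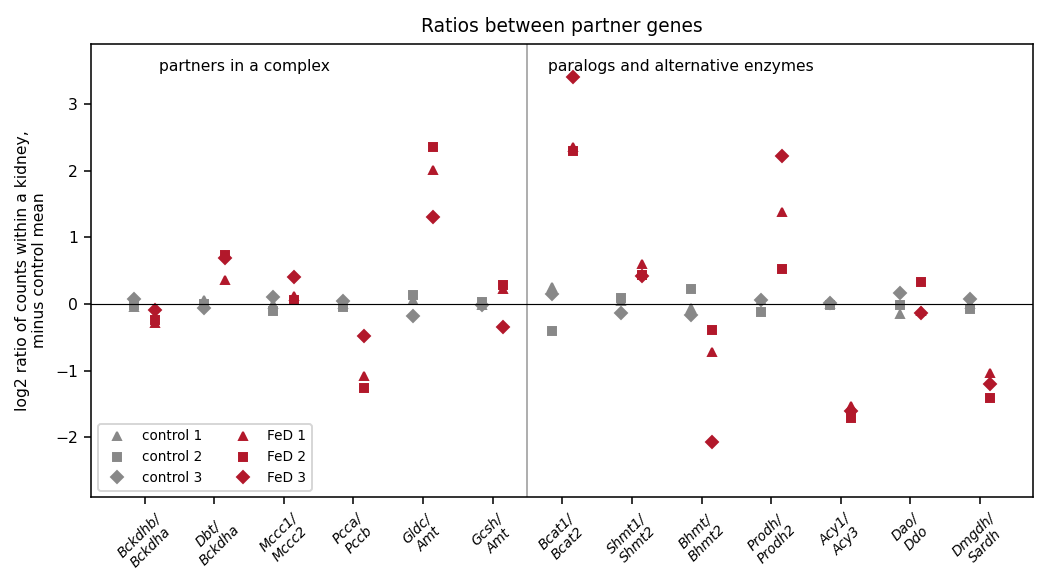
The log2 ratio of reads of paired genes in each kidney is plotted after subtracting the control mean, with grey for control and red for FeD kidneys. The largest mean differences are those of Bcat1 over Bcat2 upward (2.69) and of Acy1 over Acy3 downward (-1.62).

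FeD kidneys varied more among themselves than control kidneys did. The median SD of log2 normalized counts was 0.06 in control and 0.16 in FeD kidneys for the 46 enzymes, and 0.09 and 0.16 for all tested genes. The SD was larger in FeD kidneys for 39 of the 46. The highest and the lowest kidney differed by at least 1.5-fold for 11 enzymes among FeD kidneys and for 2 among control kidneys. FeD kidney 3 was the lowest FeD kidney for 22 enzymes and the highest for 17. The same counts were not made over all tested genes, so they are not shown to be particular to the enzymes. Aass (1302, 1633 and 960) and Pipox (1615, 2045 and 1129) had the same order as Prodh2 and Dao, with kidney 2 the highest and kidney 3 the lowest. Hgd (1.04-fold), Pccb (1.05-fold) and Gstz1 (1.05-fold) had the narrowest ranges. FeD kidney 3 was also the only one of its group with high Xist counts. In the fit with the Xist pattern as a term, that term passed edgeR's test for 0 of the 46 enzymes, and for 6 of 15145 genes at Padj under 0.05. At an unadjusted p under 0.05 these were 7 of the 46 enzymes (15.2%) and 5.76% of all tested genes. The part of sex in the spread was not otherwise tested.

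**Figure D4:**
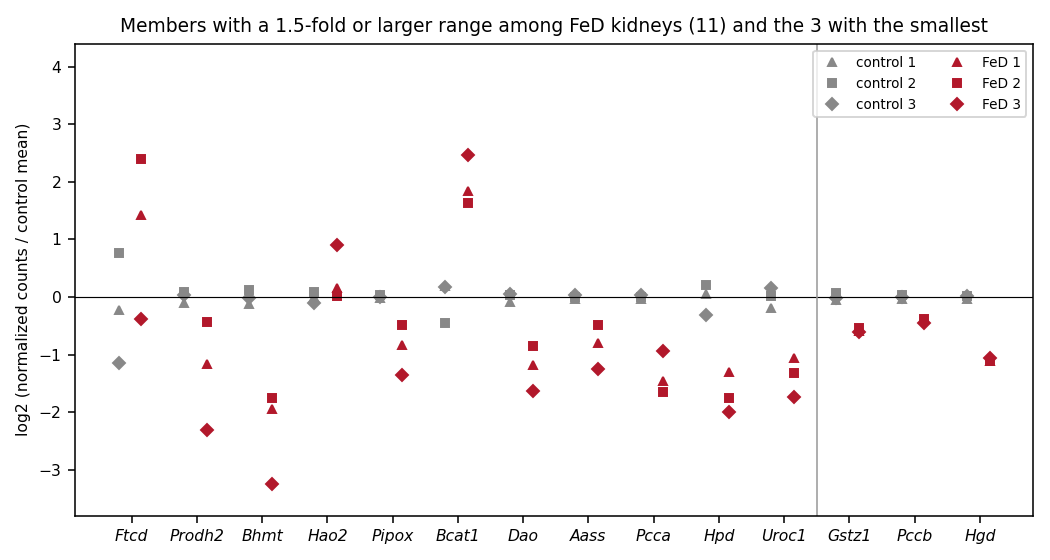
The log2 of normalized counts over the control mean is plotted for each kidney, for the 11 enzymes whose FeD kidneys differed by at least 1.5-fold and the 3 with the smallest range. Grey control points lie within 0.5 of zero, except for Ftcd, which had few counts, and FeD kidney 3 (red diamonds) is lowest among FeD kidneys for 10 of the 14 and highest for Hao2, Bcat1, Pcca and Hgd.

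Levels per kb were normalized counts divided by the length of all annotated exons of a gene joined together. That length can exceed the transcript made in the kidney, so ranks between genes are approximate. By this measure, Aldh6a1 was the highest enzyme in control kidneys at 3397 normalized counts per kb, and it was at 3295 in FeD kidneys. Hibadh followed (2890 and 2039), then Acy1 (2862 and 434). Hao2, the seventh in control kidneys (2425), was at 3226 in FeD kidneys, whereas Acy3 went from 2185 to 1013. The 2 enzymes that were higher in FeD kidneys were low in control kidneys, with 225 per kb for Gldc and 28.6 for Bcat1, and they reached 512 and 116. Ftcd (2.46) had the lowest level of the tested enzymes, and the level of Bhmt (11.9) cannot be ranked because of its copies.

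By location in the cell, 7 of 13 cytosolic, 5 of 28 mitochondrial and 2 of 4 peroxisomal enzymes were at least 2-fold lower, as was Aldh7a1, which is found in several compartments. The share was 15 of all 46 enzymes and 5.69% of all tested genes. At Padj alone, 10 cytosolic, 23 mitochondrial and 3 peroxisomal enzymes were lower, against 37 of all 46 enzymes and 23.3% of all tested genes. By listed cofactor, both iron enzymes and all 4 zinc enzymes (Acy1, Acy3, Bhmt and Bhmt2) were at least 2-fold lower. Their medians were -1.37 and -1.74. Enzymes with no cofactor listed, among them Amdhd1 (-0.41, Padj = 0.096), were not placed in either group. Iron or zinc enzymes outside the 46 were not counted, so these shares do not describe such enzymes as a class. Among all tested genes, 5.69% were at least 2-fold lower. These groups hold few genes, the zinc enzymes come in related pairs, and the level of Bhmt may rest on part of its sequence. The part of the cofactor in these changes was not tested. The median was -0.86 for 13 flavin enzymes, of which 4 were at least 2-fold lower, and -1.04 for 6 enzymes that use NAD or NADP, of which 3 were. The 5 enzymes with pyridoxal phosphate included both that were higher, Bcat1 and Gldc, and 3 that were lower, Bcat2, Shmt1 and Shmt2.

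Other genes of amino acid metabolism gave a wider frame. Of 58 such genes, 55 were tested, 32 were lower and 2 higher at Padj under 0.05, and their median log2 fold change was -0.41. Among all tested genes, 23.3% were lower and 22.4% higher. Of the 55, 4 (7.27%) were at least 2-fold lower, against 5.69% of all tested genes. Among those at least 2-fold lower were Oxct1, which activates acetoacetate (-1.84, Padj = 0.0004), Gcat, of threonine breakdown (-1.45, Padj = 1.8e-05), and Mmaa, which serves the cobalamin of methylmalonyl-CoA mutase (-1.15, Padj = 0.00017). Arg2, mitochondrial arginase, was the only one at least 2-fold higher, with 471, 474 and 486 counts in control and 1925, 1981 and 2399 in FeD kidneys (2.14, Padj = 8.9e-06). Bckdk, the kinase that inhibits the branched-chain ketoacid dehydrogenase, was at -0.41 (Padj = 0.0039), and its phosphatase Ppm1k was at -0.17 (Padj = 0.14).

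Markers of the proximal tubule, where many of these enzymes are made, were measured beside them. Of 32 markers in 3 lists, 20 were lower and 5 higher at Padj under 0.05, 9 were at least 2-fold lower, and the median log2 fold change was -0.47. Among all tested genes, these shares were 23.3%, 22.4% and 5.69%. Of the 46 enzymes, 31 had a log2 fold change below that median and 15 above it. The markers ranged from -4.89 to 0.91. Slc34a1, the phosphate transporter, was at -2.22 (Padj = 1.7e-05), and Lrp2, the endocytic receptor megalin, was at -0.48 (Padj = 0.0019). Slc27a2, a fatty acid transporter, was at 0.01 (Padj = 0.93), and Slc5a12, a lactate transporter, at 0.18 (Padj = 0.33). In the list of the late segment, Slc6a18, an amino acid transporter, was at 0.17 (Padj = 0.31), and Slc5a8 was at 0.42 (Padj = 0.0088). The summed level of early markers was 5381 to 5699 CPM in control and 1707 to 2292 CPM in FeD kidneys, while that of late markers overlapped (1201 to 1257 and 1056 to 1434 CPM). The part of tubule content in the enzyme levels was not tested.

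Of 5 transcription factors of the proximal tubule, 3 were higher at Padj under 0.05. Hnf4a, the most abundant, had 7742, 8369 and 8026 counts in control and 7945, 7210 and 5315 in FeD kidneys (-0.24, Padj = 0.19). FeD kidney 3 was the lowest of its group for Hnf4a, as it was for 22 of the 46 enzymes, while it was the highest for 17. A link between Hnf4a and the enzymes was not tested. Maf was at 0.82 (Padj = 0.00048).

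Marker lists of other cell types did not share a direction, and several moved both ways within a list at Padj under 0.05. Of 5 principal cell markers, 4 were higher, among them Aqp2 at 1.13 (Padj = 0.0093) and Aqp3 at 1.10 (Padj = 0.0023), and Avpr2 was lower at -0.67 (Padj = 0.031), with sums of 1757 to 2878 CPM in FeD and 1073 to 1531 CPM in control kidneys. Of 4 markers of the distal convoluted tubule, 3 were lower, with Slc12a3 at -1.56 (Padj = 0.00026) and Calb1 at -0.66 (Padj = 0.015), and sums of 768 to 964 against 1811 to 2393 CPM. Of 5 stromal markers, the collagens Col3a1 (-1.05) and Col1a1 (-0.81) were lower, and Dcn (0.83), Pdgfra (0.60) and Pdgfrb (0.59) were higher. The stromal sums of 1175 to 1598 against 1805 to 1850 CPM were therefore lower while the median log2 fold change was 0.59.

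Of 5 endothelial markers, 4 were lower, with Cdh5 at -0.42 (Padj = 0.021) and Pecam1 at 0.09 (Padj = 0.52), and sums of 438 to 586 against 668 to 712 CPM. Of 5 intercalated cell markers, 2 were lower, among them Slc4a1 (-1.42), and 2 higher, among them Atp6v0d2 (0.57), with sums of 283 to 309 against 367 to 409 CPM. Of 4 tested nephron progenitor markers, Meox1 was lower (-0.995, Padj = 0.00048) and Eya1 higher (1.92, Padj = 0.015), while Cited1 did not pass (-0.52, Padj = 0.082), and the sums were 14.9 to 20.7 against 25.3 to 27.9 CPM. The remaining sums overlapped between the groups. They were 5184 to 8722 against 8279 to 8850 CPM for the thick ascending limb (Slc12a1 at 0.13 and Umod at -0.40, Padj = 0.59 and 0.065) and 609 to 848 against 761 to 795 CPM for podocytes (Podxl at -0.03 and Synpo at -0.12, Padj = 0.88 and 0.43). They were 109 to 126 against 118 to 130 CPM for immune cells (Csf1r at -0.45 and Lyz2 at 0.28, Padj = 0.006 and 0.23) and 5.13 to 23.2 against 19.1 to 42.5 CPM for blood (Alas2 at -1.17, Padj = 0.081). Liver markers, from an organ rich in the same enzymes, summed to 156 to 202 CPM in FeD and 58.3 to 69.2 CPM in control kidneys, mostly from Serpina1a (1.52, Padj = 2.5e-05) and Fga (1.35, Padj = 0.014), while Alb had 2.59 to 32.5 normalized counts.

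**Figure D5:**
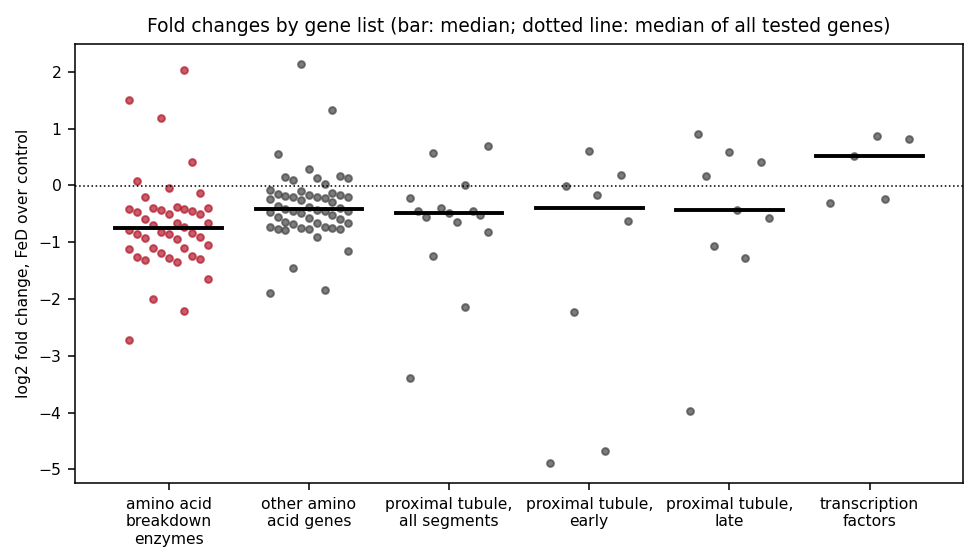
Each point is the log2 fold change of a gene in FeD over control kidneys, for the 46 enzymes (red) and 5 other lists (grey), with bars at the medians and a dotted line at the median of all tested genes. The enzymes have a median of -0.76, other amino acid genes -0.41, and the proximal tubule markers spread down to -4.89.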

How the data were processed

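RNA-seq of whole kidney was deposited by the authors as raw counts of reads per gene for each kidney, not normalized or pooled. Per the labels and the study's methods, polyadenylated RNA was sequenced as single-end reads, base calls were made with CASAVA 1.8.2, reads were trimmed with Trimmomatic and aligned to mm9 with TopHat2 2.0.11, and uniquely mapped reads were counted with HTSeq. The annotation and strand setting are not given in the sources used here. Reads that map equally well to a copy are lost by this counting. Therefore minimap2 2.31 was used to find 100-base transcript windows with at least 95 matching bases elsewhere in mm9. The number of reads lost was not measured.

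The deposited counts were tested with edgeR 4.0.16 in R 4.3.3 (filterByExpr, TMM, quasi-likelihood test, Benjamini-Hochberg adjustment over 15145 genes). A gene was called at Padj under 0.05, with and without an absolute log2 fold change of at least 1. The standard error was the fold change divided by the square root of F. A floor of 3 counts corresponds to 0.144 to 0.219 CPM and covers counting error only. DESeq2 1.42.0 and other alternatives are given in the closing section. The procedure was tested on simulated data for FeD against control (15053 genes), where edgeR found 196 of 197 genes altered by 2 on the log2 scale, with 2 false calls. The simulation gave every gene the same biological coefficient of variation (0.128) in both groups. It therefore does not cover smaller changes or the larger spread among FeD kidneys. Positions came from GENCODE for mm9. The enzymes, pathway groups and gene lists were chosen with earlier results of these data known. All 47 enzymes were named. Values per kidney were given for called genes with the largest change of a pathway in each direction, for called genes with a related partner, and for the iron enzymes Hpd and Hgd. Values for Aldh6a1, Aass, Bcat2, Dbt, Hao2, Hnf4a, Pipox, Prodh and Arg2 were added after their values were seen. Of each marker list, the 2 genes with the highest mean over all kidneys were named; Avpr2, Dcn, Pdgfra, Pdgfrb, Eya1 and genes of the adrenal list other than Star and Cyp21a1 were added after their values were seen. Some genes of the other lists are not reported here.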

Additional observations from a re-analysis of the deposited data

How the results depend on the processing

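Alternatives were 2 other scalings (DESeq2's size factors and library size alone), no filter on low counts, at least 10 counts in every kidney, DESeq2's test, the replicate block, a test against a 2-fold change, each kidney left out in turn and, chosen after seeing the data, the Xist pattern as a term. Of the 46 enzymes, 45 kept the sign of their fold change in every alternative that could be fitted. Aldh6a1 reversed, to 0.011 without control kidney 2 and 0.0032 without FeD kidney 1, with a range of -0.079 to 0.011 when a kidney was left out. Of 39 enzymes past Padj under 0.05, 37 passed in all alternatives that gave them a value, other than the test against a 2-fold change, and the exceptions were Prodh2 and Acadsb. Of 15 enzymes at least 2-fold lower, 13 were so in every alternative that gave them a value, other than the test against a 2-fold change, and the exceptions were Prodh2 and Mccc2 (-0.99 without FeD kidney 1). Bhmt and Ftcd gave no value with at least 10 counts in every kidney. When tested against a 2-fold change itself, 6 enzymes were lower (Acy1, Dmgdh, Bhmt, Hpd, Aldh4a1 and Aldh7a1) and 1 higher (Bcat1), and among all genes 286 were lower and 225 higher; that test asks for more than 2-fold by construction.

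With a kidney left out, 13 to 16 enzymes were at least 2-fold lower and 2 to 3 higher, and at Padj alone 35 to 38 were lower and 2 to 3 higher. For other amino acid genes, 1 to 2 were at least 2-fold higher and 4 to 5 lower, with 2 higher without FeD kidney 3 and 2 without a filter on low counts. For proximal tubule markers, 0 to 1 were at least 2-fold higher, the 1 without FeD kidney 3, and 9 to 9 lower. The cause was not tested. Ftcd passed without FeD kidney 3 (2.01, Padj = 0.017), Amdhd1 without FeD kidney 2 (-0.53, Padj = 0.043) and Hibch without FeD kidney 3 (-0.23, Padj = 0.034).

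Kidneys with the same number came from different dams and did not deviate together (correlations of -0.16, 0.01 and -0.04 between kidneys numbered 1, 2 and 3). With the number as a replicate block, 15 enzymes were at least 2-fold lower and 3 higher, Ftcd being the added gene (1.45, Padj = 0.022), and at Padj alone 37 were lower and 3 higher.

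Low counts limit Ftcd, Bhmt, Uroc1 and Amdhd1, and 3 kidneys per group limit every comparison.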
